A study of Mus musculus with 66 samples.

Results

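The genes described here are 7 genes of the basement membrane and the early extracellular matrix: the laminin chains Lama1, Lamb1 and Lamc1, the collagen IV chains Col4a1 and Col4a2, fibronectin (Fn1) and Sparc. They were chosen by name, and all 7 were found among the 13957 genes of the deposited expression table. The RNA came from embryonic stem cells of 129/Ola mice, a line derived from E14Tg2a in which the nuclear receptors Esrrb and Nr5a2 can be degraded by auxin. The 54 RNA libraries made 18 groups of 3: cells with auxin and cells without auxin, each as asynchronous cells, as cells arrested in mitosis, and at 7 times after release from the arrest, every 10 minutes between 20 and 60 minutes and then at 90 and 120 minutes. All 18 groups were of the same line and carry the same degradable alleles. Both receptors were degraded together, so neither can be assigned a difference on its own, and no line was included that received auxin without degradable receptors. Titles of the samples were used to assign the arm, since the labels enter every library as a control under treatment. Nr5a2 binding was measured in wild-type E14Tg2a cells, with 12 libraries in groups of 3: Nr5a2 and input in interphase, and Nr5a2 and input in mitosis. The degradation acts on protein, so the RNA table holds no check of it.

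A laminin is a trimer of an alpha, a beta and a gamma chain, and Lama1, Lamb1 and Lamc1 together make laminin-111, the first laminin of the embryo. The trimer assembles inside the cell, is secreted, and polymerises into a sheet on integrin and dystroglycan receptors. Col4a1 and Col4a2 chains form the triple helix of the second network of the basement membrane, fibronectin is a dimeric adhesive protein read by RGD-binding integrins, and Sparc is a secreted collagen-binding glycoprotein. Embryonic stem cells make these proteins at low levels, and the endoderm cells that line the early embryo make them in quantity.

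Expression was deposited as TPM with 1 value per group, the authors' mean of 3 libraries. The values of the single libraries were recovered from the last digits of these means for 13511 genes and for all 126 values of the 7 genes. They are given below as the highest, middle and lowest library, with no link between libraries of different groups. Each test named limma compares these libraries on the log2(TPM + 1) scale over 13511 genes, with Benjamini-Hochberg adjustment and a threshold of 0.05. In 1 library of the asynchronous cells with auxin the recovered genes summed to 14458 TPM, against 20906 and 21226 TPM in the other libraries of that group, and all 7 genes had their lowest value of the group in it. At 90 minutes the lowest library summed to 30754 TPM with auxin, 78.3% of the middle one, and to 28492 TPM without, 72.9% of the middle one, and there too all 7 genes were lowest in it. All 7 were also lowest in the lowest library of the asynchronous cells without auxin, which summed to 18225 TPM, 93.9% of the middle one. Of 7 embryonic stem cell markers, all 7 were called lower with auxin in the authors' deposited table, with a summed level of 34.6 to 82.9 TPM over the groups with auxin and 38.7 to 117 TPM over those without. The 9 markers of primitive and extraembryonic endoderm in the table summed to 0.173 to 2.15 TPM with auxin and 0.183 to 2.04 TPM without, and the 6 of parietal endoderm to 0.486 to 4.93 TPM and 0.402 to 4.30 TPM. The 4 fibroblast markers in the table, 1 of them higher by the call in the authors' deposited table, summed to 0.124 to 1.001 TPM with auxin and 0.0890 to 1.002 TPM without, and the 5 of mesoderm, 1 also called higher, to 0.116 to 1.35 TPM and 0.101 to 1.27 TPM. Foxa2, Mesp1 and Kdr were listed at 0 in asynchronous cells of both arms. The lists held 8 stem cell, 12 primitive and extraembryonic endoderm, 9 parietal endoderm, 14 fibroblast and 6 mesoderm markers. Those absent from the deposited table could not be read, and sums of different genes are not on a common scale. The part of other cell types in the values below was not tested, and in these bulk samples fewer cells of a type cannot be told apart from less RNA per cell.

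With auxin, 2 of the 7 genes are called lower in the authors' deposited table, Fn1 and Lama1, and 1 is called higher, Lamb1. Lamc1, Col4a1, Col4a2 and Sparc are called not responsive. Over all genes the authors' deposited table calls 7.26% lower and 6.74% higher. By limma, 0 of the 7 genes passed for auxin against no auxin, at any of the 9 stages or over the mean of the 7 times after release, and 1 of the 7, Lama1, had an unadjusted p under 0.05 over the release times. The background of that test was low: 1.1% of genes were lower and 0.17% higher over the release times, and 0.585% lower and 0.074% higher in asynchronous cells. The authors' calls were made on these same samples, and the test and stages behind them are not stated in the labels.

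Fn1 encodes fibronectin. At 90 minutes, where it was highest in both arms, the libraries stood at 15.7, 12.8 and 8.41 TPM with auxin, against 20.2, 15.5 and 9.58 TPM without, the lowest of each arm being the library of low summed level. At 120 minutes they stood at 11.0, 10.9 and 7.26 TPM with auxin, against 13.4, 12.6 and 10.9 TPM without. The arms overlapped at each of the 9 stages for Fn1, although the group mean was lower with auxin at 8 of them, all but 40 minutes.

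Averaged over the 7 release times, Fn1 was 6.83 TPM with auxin and 8.18 TPM without, or 83.4%. The log2 difference was -0.19 (limma SE 0.10, adjusted p = 0.63), and 1.57% of all genes had a lower mean difference. That share is not matched for level: 8999 of the 13957 genes reached 1 TPM in a group, and the others change little on this scale. The result depends on the scaling, since Fn1 passed after the libraries were quantile normalized (limma, log2 difference -0.21, adjusted p = 0.015) and did not when they were centred on their median (limma, adjusted p = 0.080). Of all 13511 genes, 394 were called lower and 194 higher with quantile normalization, and 262 and 59 with centring. As deposited, 148 were lower and 23 higher. In asynchronous cells Fn1 libraries were at 9.11, 9.10 and 5.44 TPM with auxin, against 10.2, 10.1 and 7.09 TPM without. Each of those groups had a single low library, in both arms the one of lowest summed level, 14458 TPM with auxin and 18225 TPM without.

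Lama1 encodes the alpha chain that gives laminin-111 its receptor-binding end. In asynchronous cells its libraries stood at 0.577, 0.574 and 0.299 TPM with auxin, against 0.850, 0.809 and 0.768 TPM without. Every library with auxin was below every library without, also when the library of low summed level is set aside. Such a gap, with auxin lower, held for 4% of the 13511 genes in asynchronous cells.

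After release, Lama1 libraries were apart in the same direction at 60 minutes (0.575, 0.539 and 0.477 TPM with auxin, against 0.695, 0.600 and 0.594 TPM without) and at 120 minutes (0.649, 0.457 and 0.393 TPM with auxin, against 0.916, 0.718 and 0.682 TPM without). The share of all genes with such a gap was 2.5% at 60 minutes and 2.42% at 120 minutes. At the other 6 stages the Lama1 libraries of the arms overlapped, and at 30 and 40 minutes the group mean was higher with auxin. Lama1 with auxin stood at 59.8% of its level without auxin in asynchronous cells, at 75.5% at 90 minutes and at 64.7% at 120 minutes. The log2 difference in asynchronous cells was -0.29 (limma, unadjusted p = 0.0061, adjusted p = 0.38), and at 120 minutes it was -0.24 (limma, unadjusted p = 0.021, adjusted p = 0.88). Over the 7 release times it was -0.08 (limma SE 0.04, adjusted p = 0.52), with 5 of 7 times lower, on a scale that understates the change of a gene under 1 TPM.

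Lamb1 encodes the beta chain, and its group mean was higher with auxin at all 7 release times. Its libraries stood at 2.57, 2.56 and 1.59 TPM with auxin at 120 minutes, against 2.48, 1.78 and 1.59 TPM without. At 40 minutes they stood at 0.625, 0.570 and 0.512 TPM with auxin, against 0.471, 0.459 and 0.441 TPM without. The arms did not overlap at 40 minutes, a gap that 8.42% of all genes showed with auxin higher, and overlapped at the other 8 stages.

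The mean over the release times was 1.12 TPM with auxin and 0.984 TPM without for Lamb1, or 113%. The log2 difference was 0.08 (limma SE 0.05, adjusted p = 0.66). A group mean higher with auxin at all 7 release times was seen for 4.64% of all genes, and one lower at all 7 for 4.54%. Of the 7 genes, Lamb1 was the 1 higher at all 7 times and 0 were lower at all 7.

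Lamc1 encodes the gamma chain, which joins most laminin trimers. At 60 minutes its libraries stood at 9.66, 7.78 and 5.59 TPM with auxin, against 11.0, 7.20 and 6.63 TPM without. In asynchronous cells they stood at 5.89, 5.39 and 3.31 TPM with auxin, against 5.45, 4.87 and 4.61 TPM without. The arms overlapped at all 9 stages, and the log2 difference over the release times was 0.05 (limma SE 0.07, adjusted p = 0.93), with the means at 5.27 TPM with auxin and 5.14 TPM without. The genes of the laminin-111 chains thus differed in the sign of their mean difference, Lama1 below 0 and Lamb1 and Lamc1 above it, but none of these differences passed the test, and the differences among the chains were not tested.

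**Figure D1:**
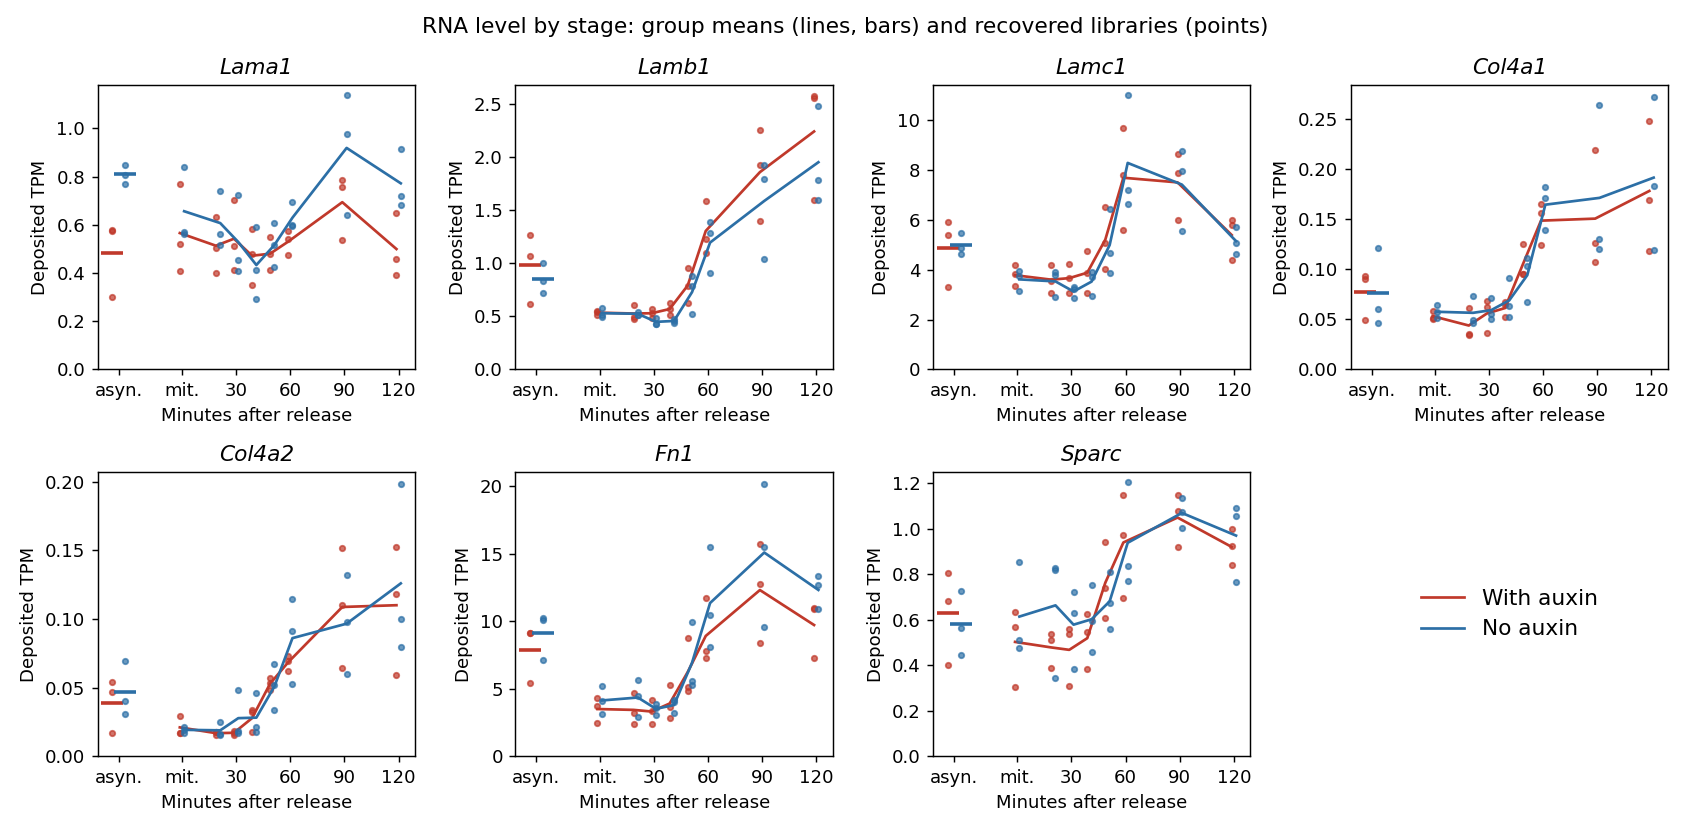
RNA level of the 7 genes in TPM (vertical axes, a separate scale for each gene) against the stage, with auxin and without auxin; points are the 3 recovered libraries of a group and lines join the authors' group means. Fn1 is highest at 90 minutes, at 12.3 TPM with auxin and 15.1 TPM without, Lamb1 is highest at 120 minutes, and Lama1 at 90 minutes is at 0.694 TPM with auxin and 0.919 TPM without.

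Col4a1 and Col4a2 lie head to head on chromosome 8 and are read in opposite directions. The annotated starts are 21 bases apart, at 11312826 for Col4a1 on the minus strand and 11312805 for Col4a2 on the plus strand. The windows from 250 bases before to 50 bases after each start, from RefSeq on GRCm38.p6, share 78 bases at chr8:11312777-11312854, which are 73.1% G and C. Both windows are shown because 1 stretch of DNA, in capitals in each, carries the starts of both genes. The Col4a1 window is chr8:11312777-11313076 on the minus strand and the Col4a2 window is chr8:11312555-11312854 on the plus strand.
Col4a1: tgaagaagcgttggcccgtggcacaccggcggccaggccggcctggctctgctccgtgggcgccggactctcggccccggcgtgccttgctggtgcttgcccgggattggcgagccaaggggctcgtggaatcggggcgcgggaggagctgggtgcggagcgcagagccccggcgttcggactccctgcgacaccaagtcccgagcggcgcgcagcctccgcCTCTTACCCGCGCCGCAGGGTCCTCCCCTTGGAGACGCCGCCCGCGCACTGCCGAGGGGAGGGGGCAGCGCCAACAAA
Col4a2: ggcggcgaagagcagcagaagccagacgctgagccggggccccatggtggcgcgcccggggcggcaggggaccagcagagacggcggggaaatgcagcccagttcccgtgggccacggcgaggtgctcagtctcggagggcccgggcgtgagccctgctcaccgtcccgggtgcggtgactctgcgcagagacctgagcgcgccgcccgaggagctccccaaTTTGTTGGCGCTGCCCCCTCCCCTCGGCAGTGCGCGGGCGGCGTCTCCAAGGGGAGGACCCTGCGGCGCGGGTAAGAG

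Both collagen IV genes were close to the floor of the measurement. In mitosis without auxin the Col4a2 libraries stood at 0.0215, 0.0190 and 0.0171 TPM, each 1 step of the smallest unit of its library, and the Col4a1 libraries at 0.0646, 0.0570 and 0.0514 TPM, each 3 steps. At 120 minutes Col4a1 libraries stood at 0.248, 0.169 and 0.118 TPM with auxin, against 0.272, 0.183 and 0.120 TPM without. At that time Col4a2 libraries stood at 0.153, 0.118 and 0.0590 TPM with auxin, against 0.198, 0.0998 and 0.0797 TPM without. The arms overlapped at 120 minutes for both genes.

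Over the release times Col4a1 averaged 0.106 TPM with auxin and 0.115 TPM without, or 92.2%, and Col4a2 averaged 0.0574 TPM with auxin and 0.0620 TPM without, or 92.5%. Neither passed (limma, adjusted p = 0.92 for Col4a1 and 0.94 for Col4a2). Across the 18 groups the levels of the pair moved together, with Pearson's r of 0.97 on the log2(TPM + 1) scale, over groups that share the stages. The other collagen IV gene in the table, Col4a5, did not exceed 0.0260 TPM in any group.

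Sparc encodes a matricellular protein, and its auxin difference changed sign over the release, lower with auxin at 5 of 7 times. At 20 minutes its libraries stood at 0.539, 0.511 and 0.386 TPM with auxin, against 0.827, 0.819 and 0.345 TPM without. At 90 minutes they stood at 1.15, 1.08 and 0.922 TPM with auxin, against 1.14, 1.07 and 1.0 TPM without. The arms overlapped at both times, with the lowest library at 20 minutes among those without auxin, and over the release times Sparc was at 93.4% of the level without auxin (limma, log2 difference -0.05, adjusted p = 0.87).

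**Figure D2:**
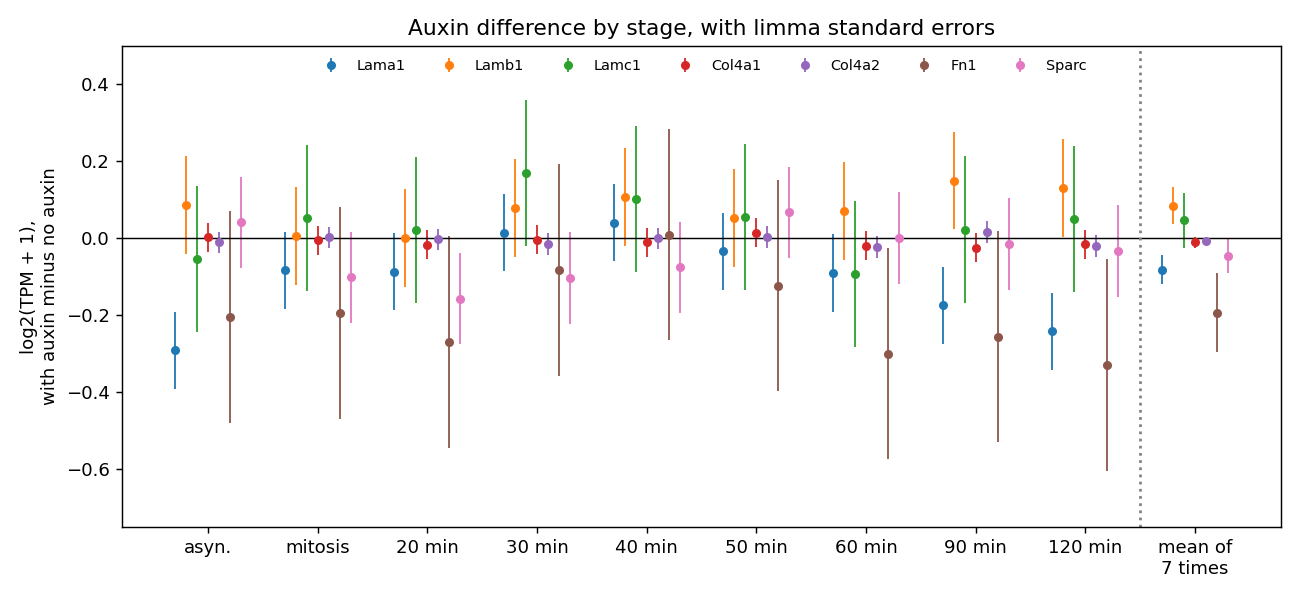
Difference in log2(TPM + 1), with auxin minus no auxin, for each of the 7 genes (vertical axis) at the 9 stages and over the mean of the 7 release times (horizontal axis), with bars of 1 limma standard error. Lama1 is at -0.29 in asynchronous cells and Fn1 at -0.19 over the release times, while Lamb1 is above 0 throughout.

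Most of the 7 genes stood higher after release than in mitosis, in both arms. With auxin, 6 of the 7 were higher at 60 minutes than in mitosis by limma, all but Lama1, and without auxin the same 6 genes passed. Over all genes, 68.7% were higher with auxin and 70.8% without, and 89.1% had a higher group mean at 60 minutes than in mitosis without auxin, so a rise was the common course. The median gene of at least 1 TPM was itself 0.95 higher at 60 minutes on this log2 scale with auxin, and 1.01 higher without. The deposited means of all genes summed to 17155 TPM in mitosis and 46542 TPM at 60 minutes with auxin. Without auxin they summed to 17189 and 49059 TPM, so the values as deposited rose over the whole table. With the libraries quantile normalized, 0 of the 7 genes were higher at 60 minutes without auxin and 4 were lower by limma, namely Lama1, Lamb1, Lamc1 and Sparc. Of all 13511 genes, 3822 were then higher and 4683 lower. With the libraries centred on their median, 0 were higher and 5 were lower, beside 2129 higher and 8914 lower of all 13511 genes. The 5 include Col4a1 and Col4a2, whose group means as deposited were 2.86 and 4.48 times the mitotic ones. Centring takes the median rise off log2(TPM + 1), on which genes so near the floor change little, so these calls show no fall in their RNA.

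Fn1 had the largest rise on this scale at 60 minutes, as deposited. With auxin its libraries stood at 4.30, 3.73 and 2.45 TPM in mitosis, and at 11.7, 7.78 and 7.26 TPM at 60 minutes after release. Without auxin they stood at 5.17, 4.08 and 3.15 TPM in mitosis, and at 15.5, 10.5 and 8.07 TPM at 60 minutes. In both arms every library at 60 minutes was above every mitotic one. The log2 difference was 1.14 with auxin (limma, adjusted p = 0.00035) and 1.24 without (limma SE 0.27, adjusted p = 0.00011), and at 90 minutes the group mean was 3.52 times the mitotic one with auxin and 3.65 times without. At 60 minutes Fn1 did not pass in either arm with quantile normalization (limma, log2 difference -0.054, adjusted p = 0.76 with auxin, -0.0035 and 0.99 without). It also did not pass with centring (limma, 0.039, adjusted p = 0.83 with auxin, 0.075 and 0.68 without).

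Lamc1 rose by 60 minutes in the values as deposited, though not with the libraries quantile normalized or centred, and was lower again at 120 minutes. With auxin its group mean was 3.78 TPM in mitosis, and after release it was 7.68 TPM (60 minutes), 7.49 TPM (90 minutes) and 5.38 TPM (120 minutes). Without auxin it was 3.61 TPM in mitosis, and then 8.27 TPM (60 minutes), 7.40 TPM (90 minutes) and 5.14 TPM (120 minutes). The log2 difference at 60 minutes relative to mitosis was 0.84 with auxin (limma, adjusted p = 0.00016) and 0.98 without (limma SE 0.19, adjusted p = 1.5e-05). The libraries of that 60-minute group without auxin had no value with the whole range searched first in the recovery. The difference at 120 relative to 60 minutes was -0.43 with auxin, which did not pass (limma, adjusted p = 0.065), and -0.57 without, which did (limma, adjusted p = 0.014). With auxin it passed with quantile normalization (limma, -0.26, adjusted p = 0.0029) and with centring (limma, -0.29, adjusted p = 0.0065), and the difference between the arms in this step was not tested.

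Lamb1 took the other course and was higher at 120 than at 60 minutes. With auxin its group mean was 0.535 TPM in mitosis, and after release it was 1.30 TPM (60 minutes) and 2.24 TPM (120 minutes). Without auxin its libraries stood at 0.582, 0.513 and 0.496 TPM in mitosis, at 1.39, 1.29 and 0.909 TPM at 60 minutes and at 2.48, 1.78 and 1.59 TPM at 120 minutes. These 3 groups without auxin did not overlap. The level at 120 minutes was 0.48 above that at 60 minutes on the log2 scale with auxin (limma, adjusted p = 0.0021), and 0.42 above it without (limma, adjusted p = 0.0067). At 120 minutes Lamb1 stood at 4.19 times its mitotic level with auxin and at 3.68 times without. Between 60 and 120 minutes without auxin, Lamb1 was called higher and Lamc1 lower by limma also with the libraries quantile normalized (log2 difference 0.39 for Lamb1 and -0.30 for Lamc1) and with the libraries centred on their median (0.65 for Lamb1 and -0.34 for Lamc1), so the direction of this pair did not turn with the scaling.

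Lama1 was not called higher after release, unlike the other chains in the values as deposited. Without auxin its libraries stood at 0.839, 0.570 and 0.560 TPM in mitosis, at 0.593, 0.413 and 0.294 TPM at 40 minutes, at 0.695, 0.600 and 0.594 TPM at 60 minutes and at 1.14, 0.977 and 0.641 TPM at 90 minutes, the last in the library of low summed level. Its lowest level of the release was at 40 minutes in both arms, and in the values as deposited neither arm passed at any release time (limma, adjusted p = 0.88 at 60 minutes and 0.059 at 90 minutes without auxin). With the libraries quantile normalized, and also with them centred, Lama1 was called lower than in mitosis by limma at 40, 50, 60, 90 and 120 minutes in both arms, with a quantile-normalized log2 difference at 60 minutes of -0.55 with auxin and -0.61 without. Across the 18 groups, Pearson's r of Lama1 with the other 6 genes was 0.42 to 0.61, while r among those 6 was 0.78 to 0.97.

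Col4a1, Col4a2 and Sparc rose from low levels in the values as deposited. Without auxin the log2 difference at 60 minutes relative to mitosis was 0.14 for Col4a1 (limma, adjusted p = 0.0012), 0.09 for Col4a2 (limma, adjusted p = 0.0036) and 0.27 for Sparc (limma, adjusted p = 0.044). The call of Sparc was lost in 3 of 54 fits that each left out 1 library, with adjusted p up to 0.26, and with a pseudocount of 0.1 (limma, adjusted p = 0.061). At 120 minutes Col4a1 was at 3.35 times its mitotic level with auxin and 3.32 times without, and Col4a2 at 5.24 times with auxin and 6.55 times without, the Col4a2 ratios resting on a mitotic level of about 1 step.

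At 120 minutes, 6 of the 7 genes were above mitosis without auxin, beside 76% of all genes. Lamc1 and Sparc were the ones that lost this call when single libraries were left out, in 4 of 54 fits each, and Lama1 was the one not called. Of the 7, Fn1 was called higher at 120 minutes without auxin under each scaling (limma, log2 difference 0.41 with quantile normalization and 0.45 with centring), but with auxin it was called as deposited only (limma, 0.25 and adjusted p = 0.14 with quantile normalization, 0.30 and adjusted p = 0.099 with centring). Without auxin Lama1, Lamc1 and Sparc were called lower at 120 minutes under both of these scalings. Of all 13511 genes, 3600 were called lower there with quantile normalization and 8371 with centring. The highest level without auxin fell at 60 minutes for 1 of the 7 genes, Lamc1, at 90 minutes for Lama1, Fn1 and Sparc, and at 120 minutes for Lamb1, Col4a1 and Col4a2, and each gene had its highest level at the same time with auxin. The highest level without auxin fell at 60 minutes for 38.3% of all genes, at 90 minutes for 20.8% and at 120 minutes for 29.3%. Among genes that span 50 kb or more, as 6 of the 7 do, these shares were 23.6%, 26.6% and 41.5%. With auxin, Fn1 passed against mitosis at 50 minutes as deposited (limma, adjusted p = 0.036), beside 7401 of 13511 genes higher. Fn1 did not pass there with quantile normalization (limma, log2 difference -0.23, adjusted p = 0.14) or with centring (limma, -0.14, adjusted p = 0.44). Between 20 and 50 minutes 0 of the 7 genes passed against mitosis without auxin by limma as deposited, with 1 at an unadjusted p under 0.05 at 40 minutes and 1 at 50 minutes. Of all 13511 genes, 1873 were higher than in mitosis at 40 minutes and 7407 at 50 minutes.

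Fewer of the 7 genes passed between asynchronous and mitotic cells. With auxin, Fn1 and Lamb1 were above their mitotic level by limma (adjusted p = 0.0057 for Fn1 and 0.028 for Lamb1), beside 4539 of all 13511 genes. Lamb1 lost the call with quantile normalization (limma, adjusted p = 0.58) and with centring (limma, adjusted p = 0.81). Without auxin, Fn1 was the 1 gene of the 7 to pass (limma, log2 difference 0.99, adjusted p = 0.0041), beside 41.7% of all genes. Fn1 was also called with quantile normalization and with centring in both arms (limma, log2 difference 0.69 and 0.65 with auxin, and 0.60 in each without). Released cells without auxin exceeded asynchronous ones at 120 minutes in 4 of the 7 genes, Lamb1, Col4a1, Col4a2 and Sparc, beside 50% of all genes. With quantile normalization 3 of the 4 were still called higher by limma, Lamb1 (adjusted p = 0.00053), Col4a1 (0.0025) and Col4a2 (0.0025), beside 2469 of 13511 genes. Sparc was not (limma, adjusted p = 0.61). With centring 0 of the 4 were called higher and 3, Col4a1, Col4a2 and Sparc, were called lower by limma, beside 1676 higher and 7369 lower of 13511 genes. Lamb1 at 120 minutes was at 2.28 times its asynchronous level with auxin and at 2.29 times without.

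The genes most like 6 of the 7 over the 18 groups, by Pearson's r of log2(TPM + 1) among genes of at least 1 TPM, are given next. Lama1 was most like Bcat1 (r = 0.89), Abca1 (0.88) and Jam2 (0.86), and all 3 are called lower with auxin in the authors' deposited table. Fn1 was most like Aplp1 (0.99), which the authors' deposited table also calls lower. Lamb1 was most like Lin28b (0.99), called higher there, and Lamc1 was most like Slc23a2 (0.99), called not responsive. The closest genes were Zfp651 for Col4a1 (0.99), called lower there, and St6galnac4 for Col4a2 (0.99), called not responsive.

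Nr5a2 peaks lay within or near all 7 genes. The authors' list holds 35266 peaks with 1 of 4 class codes, L, eB, dB and nB, whose meaning the labels do not state, and it gives no signal per library, so interphase and mitosis cannot be compared. Counting peaks in a gene or within 10 kb of either side, 27 distinct peaks lay at the 7 loci, 18 of class L, 6 of eB, 1 of dB and 2 of nB. At least 1 peak was found for 7 of 7 genes, beside 70.5% of all genes, and for 82.5% of the 3923 genes that span 50 kb or more, as 6 of the 7 do. At least 1 eB peak was found for 6 of the 7, all but Fn1, beside 28.2% of all genes. That share is not matched for gene length, and the eB share among genes of 50 kb or more was not computed. Such genes had a median of 2 peaks of any class, against 1 over all genes.

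Fn1, at chr1:71585473-71653280, had 4 peaks, all within the gene, among them the only dB peak of the 7 loci at chr1:71634745-71635606. Lama1, at chr17:67697127-67822645, had 6 peaks, and its eB peak at chr17:67697618-67698525 was centred 0.94 kb inside the lower end of the gene. Of genes of 50 kb or more, 17.9% had at least as many peaks as Lama1.

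Lamb1, at chr12:31265146-31329644, had an eB peak at chr12:31289008-31289791 and an L peak, centred 24.1 and 28.8 kb from its start and both within the gene. Lamc1, at chr1:153218922-153332786, had 3 peaks within the gene, an eB peak among them. Sparc, at chr11:55394159-55420080, had 3, of which the nB peak was 2.09 kb from its start. The annotation used here gives genes without exons, so whether a peak lies in an exon or an intron was not analysed here.

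Col4a1, at chr8:11198423-11312889, had 4 peaks and Col4a2, at chr8:11312805-11449287, had 6. They share the eB peak at chr8:11308457-11310095, which lies in Col4a1 and is centred 3.55 kb from the Col4a1 start and 3.53 kb from the Col4a2 start. The head-to-head stretch printed above is not covered by a peak.

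**Figure D3:**
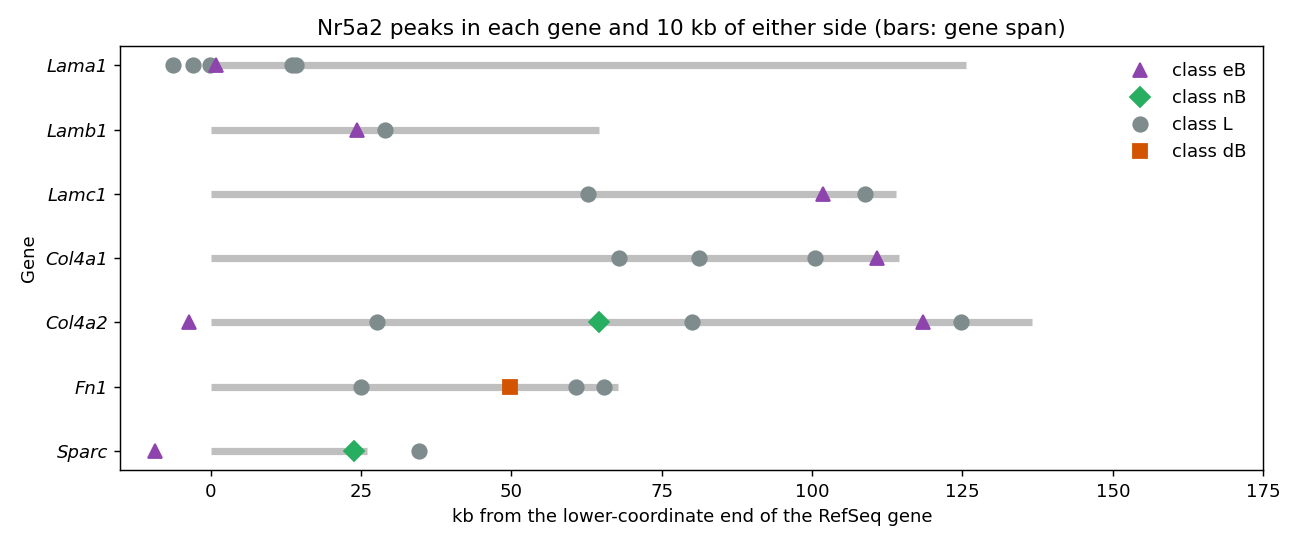
Nr5a2 peaks at the 7 genes, by class code, in kb from the lower-coordinate end of each gene (horizontal axis); bars show the gene span and a row stands for a gene. The 6 genes other than Fn1 each have an eB peak, and the single dB peak lies within Fn1.

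RefSeq start windows were found for 4 of the 7 genes, Lamb1, Col4a1, Col4a2 and Sparc, and 0 of the 4 overlapped a peak. Neither TCAAGGTCA, the extended nuclear receptor site of both factors, nor its core AAGGTCA was found on either strand in these 4 windows. Of 32851 promoter windows of the same length, 0.423% hold TCAAGGTCA and 4.72% hold AAGGTCA, which is contained in it. The Lamb1 window is shown because Lamb1 is the 1 gene of the 7 called higher in the authors' deposited table. It is chr12:31265043-31265342 on the plus strand, with a CCAAT motif on this strand and 2 GGGCGG motifs on the opposite strand, which read CCGCCC here, in capitals. These motifs, searched on both strands after the values were seen, are held by 37.4% and 35.7% of the windows.
Lamb1: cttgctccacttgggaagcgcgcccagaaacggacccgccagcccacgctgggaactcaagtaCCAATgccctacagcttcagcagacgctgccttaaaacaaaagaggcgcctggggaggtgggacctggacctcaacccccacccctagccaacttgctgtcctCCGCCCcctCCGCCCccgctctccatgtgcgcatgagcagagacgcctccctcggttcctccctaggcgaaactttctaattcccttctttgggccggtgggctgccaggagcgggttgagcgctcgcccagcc

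The proteins that bind, hold or process these matrix chains were followed in a list of 70 genes, of which 56 were in the table and 28 reached 1 TPM in a group. The authors' deposited table calls 8 of the 56 lower with auxin, among them Lama5, Nid1, Nid2, Hspg2, Itga6, Bcam and Sdc4. It calls 10 higher, namely Lamb2, Col18a1, Itgb5, P4ha2, Plod2, Serpinh1, Mia3, Pxdn, Timp3 and Adamts1. Over all genes these shares were 7.26% lower and 6.74% higher. The median difference over the release times of the 28 genes was -0.0014, against 0.016 for all genes of at least 1 TPM.

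Among the 11 linkers and proteoglycans, which tie the laminin sheet to the collagen IV network, 3 are called lower and 1 higher in the authors' deposited table. Nid2, which encodes nidogen-2, was the 1 gene of the 54 of the list with recovered libraries that passed limma over the release times in the values as deposited, at 3.43 TPM with auxin and 5.25 TPM without (log2 difference -0.46, SE 0.10, adjusted p = 0.0048). With quantile normalization 5 passed, all lower (Nid1, Nid2, Hspg2, Itga6 and Timp1), and with centring 4. Of all 13511 genes, 394 were lower and 194 higher with quantile normalization, and 262 lower and 59 higher with centring. As deposited, 148 were lower and 23 higher. Col18a1 and P4hb had no complete set of recovered libraries and were not tested. Hspg2, which encodes perlecan, averaged 3.99 TPM with auxin and 4.78 TPM without, and Nid1, which encodes nidogen-1, averaged 0.475 TPM with auxin and 0.582 TPM without.

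Among the 14 receptors 3 are called lower and 1 higher in the authors' deposited table. Itga6, the alpha chain of the laminin-binding integrins, averaged 2.30 TPM with auxin and 2.74 TPM without over the release times. Lama5, the alpha chain of laminin-511, on which embryonic stem cells are often grown, averaged 4.11 TPM with auxin and 4.85 TPM without.

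Among the 16 genes of folding, modification and crosslinking 5 are called higher and 0 lower in the authors' deposited table, beside 6.74% higher and 7.26% lower over all genes. Of these genes, 0 passed limma over the release times as deposited or with quantile normalization, P4hb not being tested. The 5 include Serpinh1, the collagen chaperone of the endoplasmic reticulum, P4ha2, a prolyl hydroxylase chain, and Pxdn, the peroxidase that crosslinks collagen IV. Of the 8 remodelling genes 2 are called higher and 0 lower in the authors' deposited table.

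**Figure D4:**
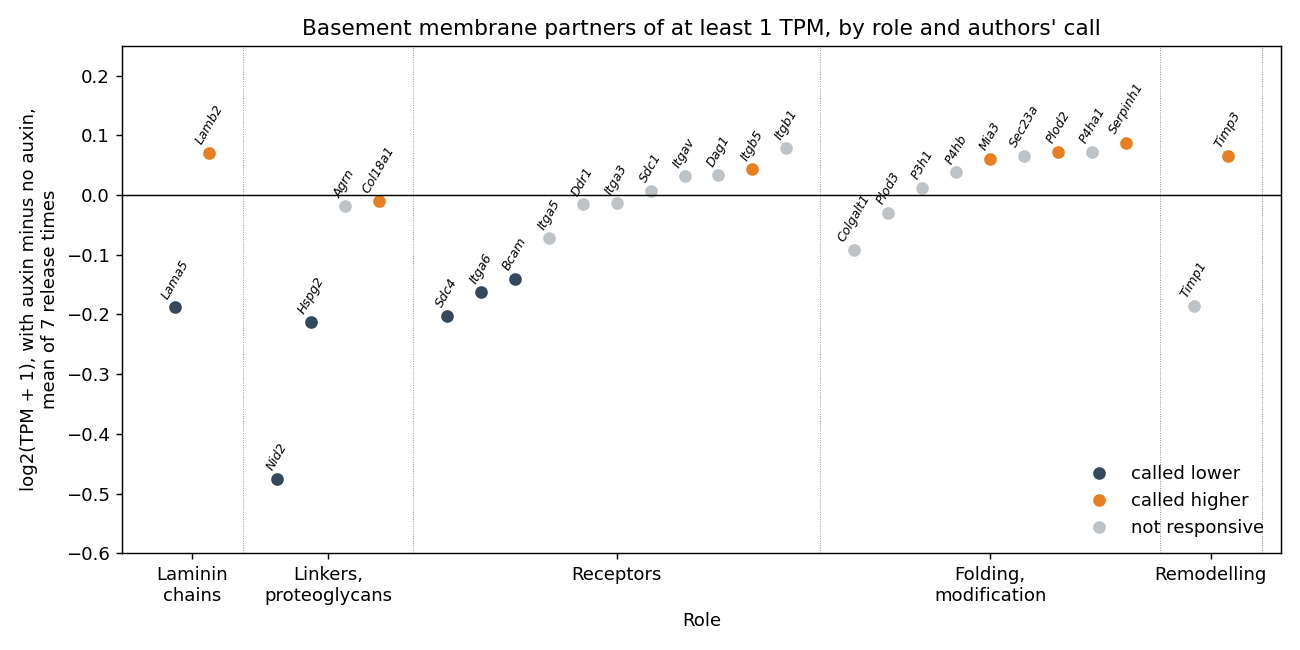
Difference in log2(TPM + 1), with auxin minus no auxin, averaged over the 7 release times (vertical axis), for the partner genes of at least 1 TPM in a group, by role (horizontal axis) and by the authors' call. Nid2 is the lowest point at -0.46, and each point is a gene.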

How the data were processed

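The expression values are TPM, deposited as the authors' mean of 3 libraries per group. Per the submitters' processing notes, the tools were STAR, RSEM, DESeq2, Bowtie2 and MACS2 and the genome build was mm10, with no version or setting given. The authors deposited 1 Nr5a2 peak list with class codes.

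The design named no test for group means. Each mean times 3 is whole at 9 decimals, and equals a sum of 3 whole multiples of 3 steps shared by all genes of a group, 0.0146 to 0.0286 TPM, so library values were recovered for 96.8% of genes. The shared steps leave no room for a gene length, so levels are not comparable between genes, and depth in reads is unknown. The summed marker levels and the cut of 1 TPM carry this limit. The recovery was chosen after seeing the data: 5 rules were tried, the last change followed an implausible Fn1 value, and values from 0.5 to 1.7 of the mean were searched first, which can understate spread. On simulated data 98.6% of values were decoded and 99.9% of those were right; false targets were solved in 0.900% to 6.79% of cases. limma 3.58.1 (R 4.3.3) was then run on log2(TPM + 1) over 18 groups, with a trend. Nothing says that libraries are separate cultures, or that times do not share one, so p-values may be too small. The genes and lists were chosen with earlier results of these data known. Named partners are those the authors call; like genes are the 3 of highest r. Some genes that these rules name are not reported here. Positions are from RefSeq GRCm38.p6, the assembly also named mm10. Python 3.11.15 was used.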

Additional observations from a re-analysis of the deposited data

How the results depend on the processing

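No paired analysis was possible because the recovered libraries carry no replicate number. Fits with a replicate block, or without 1 numbered replicate, were not run. Each recovered library was left out in turn instead. The recovery and its limma fits, with their alternatives, were added after seeing the data. Over the release times 0 of the 7 genes were called for auxin as deposited, with a pseudocount of 0.1, with median centring, without 40 and 60 minutes, among the 4 genes tested with a minimum of 1 TPM, among the 6 tested with the whole range searched first in the recovery (Lamc1 had no value), and in all 54 fits that left out a library (0 to 0 genes), and 1, Fn1, was called with quantile normalization. Quantile normalization called 394 lower and 194 higher of all 13511 genes there, against 148 and 23 as deposited. Adjusted p in the 54 fits was 0.44 to 0.74 for Fn1 and 0.28 to 0.67 for Lama1. At 60 minutes relative to mitosis without auxin 6 genes were higher as deposited, 5 with a pseudocount of 0.1 (Sparc was lost), 5 to 6 with a library left out, 0 with quantile normalization and 0 with centring. In group means, 6 of 7 genes were above mitosis at 60 minutes without auxin as deposited, 2 with quantile normalization (Lamb1 -0.17, Lamc1 -0.31, Fn1 -0.048 and Sparc -0.43 turned) and 1 with centring (Lamb1 -0.49, Lamc1 -0.0055, Col4a1 -0.87, Col4a2 -0.92 and Sparc -0.75 turned). Asynchronous cells without auxin were above mitosis in 6 genes as deposited, in 3 with quantile normalization (Lama1 -0.28, Lamb1 -0.071 and Col4a1 -0.049 turned) and in 2 with centring (Lama1 -0.20, Lamb1 -0.051, Col4a1 -0.30 and Col4a2 -0.29 turned). A window of 50 kb gave 49 peaks at the loci, against 28 for 10 kb with the shared peak counted for both genes. The cause of these changes was not tested. Col4a1 and Col4a2 without auxin stand at 3 steps and 1 step in each mitotic library.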
